A study of Mus musculus with 17 samples.

Results

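The genes described here carry glucose into the macrophage, split it to pyruvate and lactate, divert it into the pentose phosphate pathway, or belong to the HIF-1 axis, which controls many of these genes. They were chosen by symbol with earlier results of these data known, and each of the 34 symbols matched 1 of the 21683 rows of the gene table. All 34 also passed the filter on low values (at least 1 TPM in at least 5 libraries), as did 10451 rows in all. TPM values take transcript length into account, so that levels of different genes can be set side by side.

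Peritoneal macrophages (PMs) elicited with thioglycollate were sequenced from C57BL/6 mice that all carried floxed alleles of IKKβ, the kinase that activates NF-κB. PMs of IKKβF/F mice received PBS (F/F PBS, n = 6 libraries) or 100 nM Tat, the transactivator protein of HIV (F/F Tat, n = 6), and PMs of IKKβΔMye mice received 100 nM Tat (ΔMye Tat, n = 5). The ΔMye mice also carried 1 copy of LysM-Cre, a knock-in at the lysozyme gene Lyz2 that is active in myeloid cells. Mice were 8 weeks old and had received 1 mL of 3% thioglycollate, 3 days before collection by the labels and 4 days by the study's methods, and adherence for 4 h was followed by 12 h of treatment. No ΔMye PBS libraries were analysed here, so differences between the genotypes under Tat may have been present before Tat and no interaction was fitted. The labels do not say whether libraries of a group came from separate animals, while the study calls each a biological replicate, and p-values here measure the spread between these libraries.

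Glycolysis breaks glucose down in the cytosol and yields ATP, pyruvate and, when pyruvate is reduced, lactate, which leaves the cell through monocarboxylate transporters. The pentose phosphate pathway branches off after the hexokinase step and makes NADPH and ribose phosphate. HIF-1α, the regulated subunit of the factor HIF-1, is marked for destruction by oxygen-dependent prolyl hydroxylases, and when it persists it raises transcription of glucose transporters, glycolytic enzymes and other genes. Macrophages activated by bacterial products are known to raise glucose uptake and lactate output, and the Hif1a gene itself is a known target of NF-κB.

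The targeted gene Ikbkb had 16.4 ± 2.59 TPM in ΔMye Tat (SD, n = 5) and 23.2 ± 1.44 TPM in F/F Tat (SD, n = 6), with no overlap of the groups (log2 difference -0.51, SE 0.08, adjusted p = 4.51e-05 in limma). The table gives 1 value for the whole gene, so exons outside the deleted part count in it. Lyz2, the locus of the Cre, fell from 6993 to 4333 TPM with deletion. All 8 macrophage markers were present in every group, from Mertk (means 15.4, 20.1 and 24.3 TPM in F/F PBS, F/F Tat and ΔMye Tat) to Lyz2, and they did not move as one. With Tat 3 were higher, among them Cd14 (2.05) and Fcgr1 (1.41), and 5 lower, among them Csf1r (-2.57, from 381 to 64.0 TPM), and with deletion 4 were higher and 2 lower, Fcgr1 falling by 0.87. Their summed level ran from 25796 to 26807 TPM in F/F PBS, from 10310 to 10890 TPM in F/F Tat and from 8019 to 8344 TPM with deletion, most of it Lyz2, and their part in the results was not tested. Of the lists for other cells, neutrophil markers summed to 71.2 to 83.6, 66.8 to 79.2 and 89.5 to 107 TPM in the 3 groups, most of it S100a8 (means 53.8, 68.6 and 91.4 TPM). In ΔMye Tat 2 of 4 tested neutrophil markers were higher and 0 lower, and Ngp was at 0 in every library. Markers of T and innate lymphoid cells summed to 153 to 176, 149 to 164 and 160 to 175 TPM, most of it Il7r (means 152, 149 and 152 TPM). With deletion 5 of 7 tested lymphoid markers were higher, at means of 1.24 to 3.50 TPM in ΔMye Tat, and 0 lower, while Il7r did not pass. The red cell list of 3 genes summed to 0 to 0.891, 0 to 0.653 and 3.75 to 9.96 TPM. With deletion, markers of B cells (0 higher and 1 lower of 4 tested), NK cells (0 and 0 of 2), eosinophils and mast cells (0 and 1 of 4) and mesothelial cells (0 and 0 of 1) mostly did not pass. The part of these cells in the results below was not tested, and in bulk RNA fewer cells of a type and less RNA per cell cannot be told apart. As a background to the marker counts, 17% of all tested genes were higher and 67.6% lower with Tat. With deletion these shares were 38.8% and 8.87%.

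Tat moved the whole table. Over all tested genes the median difference of F/F Tat from F/F PBS in log2(TPM + 0.1) was -0.65, with 67.6% of them lower and 17% higher (limma, passed where the Benjamini-Hochberg adjusted p was under 0.01). The main differences are therefore also given after median-ratio scaling, which divides a library by the median of its ratios to the average library, with factors of 1.25 to 1.34 in F/F PBS, 0.797 to 0.850 in F/F Tat and 0.895 to 1.01 in ΔMye Tat. On that scale the median of all genes was -0.03, 37.1% were higher and 38.1% lower. Among the 34 genes, 12 were higher with Tat (35.3%), 18 lower (52.9%) and 4 did not pass, with a median of -0.65, and after scaling 15 were higher, 14 lower and 5 did not pass, with a median of -0.02. The F/F Tat libraries lay wholly above the F/F PBS libraries for 12 of the 34 genes, where 15.3% of all tested genes did so, and wholly below for 18, where 62.4% did.

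The study's thresholds, which ask for a fold change over 3 beside the same adjusted p, were passed upward by 4 genes, Slc2a6, Pfkfb3, Hif1a and Slc2a1, and downward by 3, Aldoc, Taldo1 and Pgls, of which Aldoc had reached 1 TPM in the 6 F/F PBS libraries alone and so passed the filter only through the group where it was high. Of all tested genes 5.21% passed upward and 19.4% downward. After scaling P4ha1, Hk2 and Hk3 joined the genes that passed upward, making 7 (8.51% of all genes), and Aldoc was the 1 gene that passed downward (9.76%). Hif1a, both listed glucose transporters and Pfkfb3 were higher with Tat and all 6 pentose phosphate enzymes lower, in TPM as in scaled values. Scaling raises every difference from F/F PBS, whose factors were highest, so a gene higher in TPM stays higher. Only genes lower in TPM could have turned.

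Deletion of IKKβ in Tat-treated PMs went with a shift of the opposite sign over the whole table (median 0.22, 38.8% of genes higher and 8.87% lower). Of the 34 genes, 7 were higher in ΔMye Tat than in F/F Tat (20.6%), 15 lower (44.1%) and 12 did not pass, with a median of -0.13. The median of all genes was 0.01 after scaling, with 16.4% higher and 18.8% lower, and the 34 genes then had 1 higher, 22 lower (64.7%) and 11 that did not pass, with a median of -0.34. The ΔMye Tat libraries lay wholly above the F/F Tat libraries for 7 genes, where 28.6% of all genes did so, and wholly below for 14, where 8.01% did. None of the 34 passed the fold threshold in either direction (0.44% of all genes upward, 0.316% downward), and the differences ran from -1.33 for Bnip3 to 0.49 for Pgls among the genes that passed the adjusted p. Both comparisons use the F/F Tat libraries, so their values are given side by side for each gene.

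**Figure D1:**
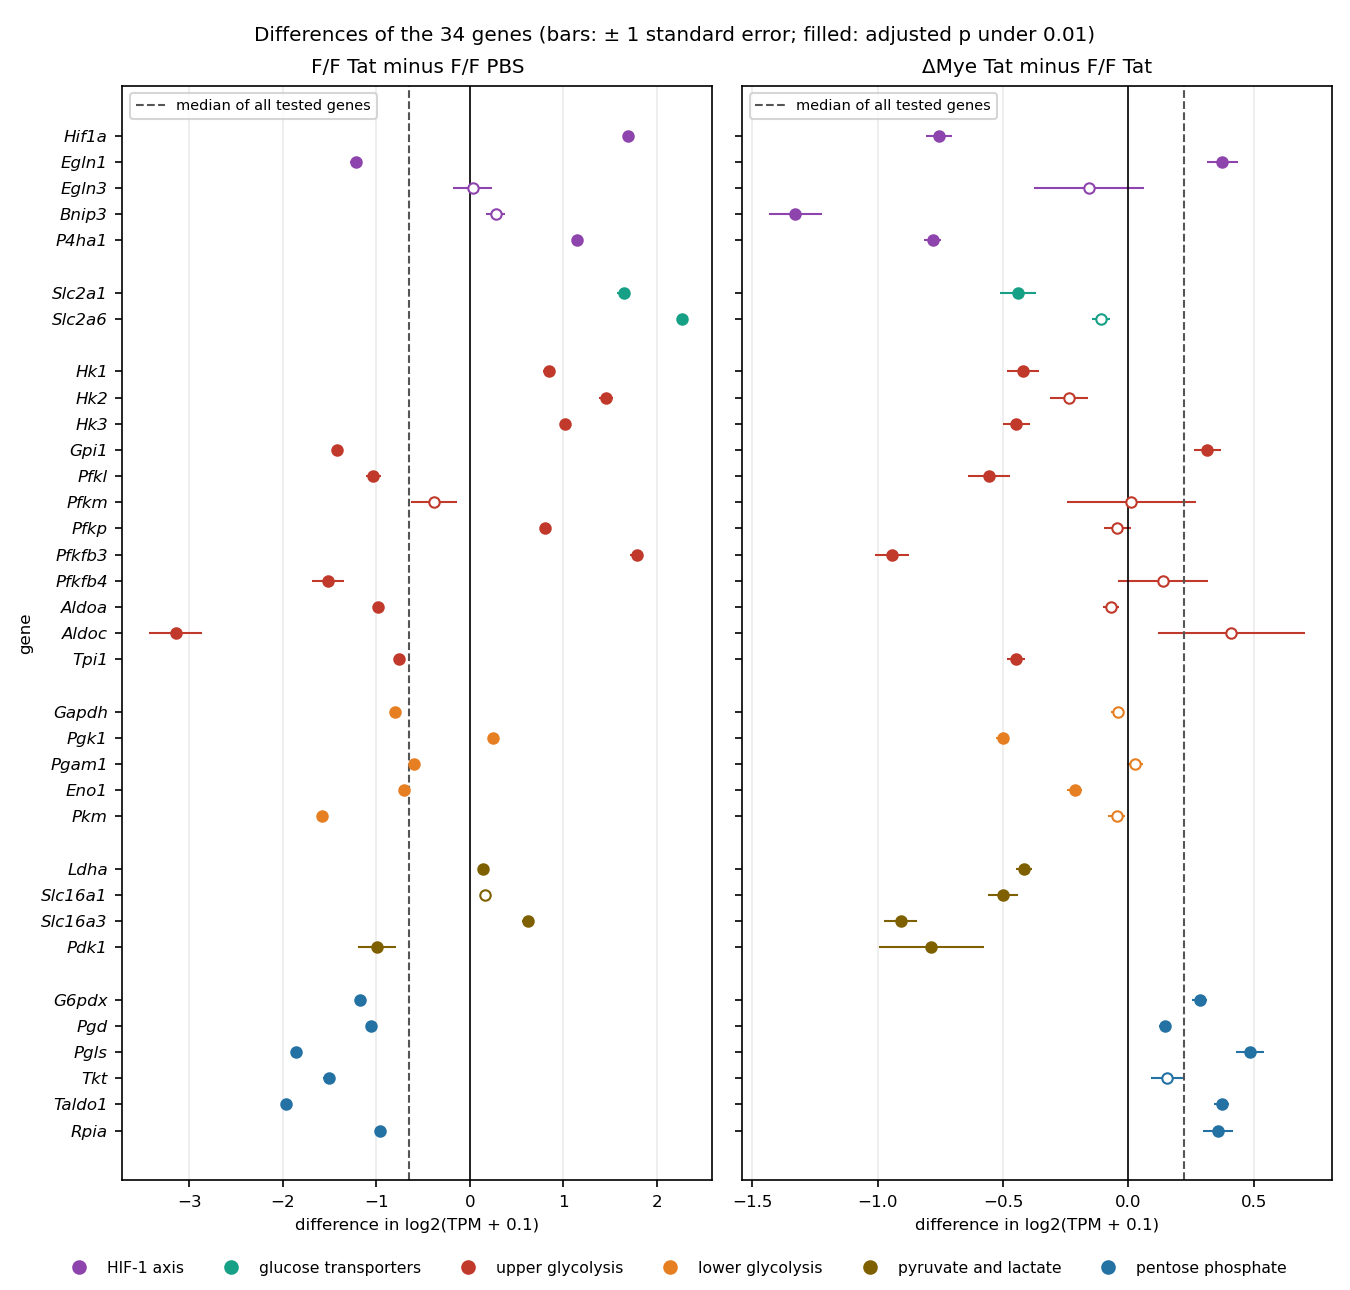
Difference in log2(TPM + 0.1) of each of the 34 genes, coloured by role, with Tat (F/F Tat minus F/F PBS, left) and with deletion (ΔMye Tat minus F/F Tat, right), with bars of 1 standard error, filled points for adjusted p under 0.01 in limma and a dashed line at the median of all tested genes (-0.65 left, 0.22 right). The glucose transporters sit right of 0 in the left panel and the 6 pentose phosphate enzymes left of it, and in the right panel most points of the HIF-1 axis, of glycolysis and of the lactate genes lie left of the dashed line.

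The HIF-1 axis had 2 genes higher with Tat, 1 lower and 2 that did not pass, where 17% of all tested genes were higher and 67.6% lower. Hif1a, on chromosome 12 (73901375 to 73947530, plus strand, GRCm38), encodes the HIF-1α subunit. Its lowest, median and highest values were 54.4, 59.8 and 66.2 TPM in F/F PBS and 178, 195 and 206 TPM in F/F Tat, and the 5 values with deletion were 123, 119, 113, 115 and 103 TPM. The 3 groups did not overlap, and ΔMye Tat lay between the others. Hif1a rose by 1.69 with Tat on the log2 scale (SE 0.05, adjusted p = 5.31e-17 in limma) and fell by 0.76 with deletion (SE 0.05, adjusted p = 4.61e-10), and ΔMye Tat remained 0.93 above F/F PBS. Scaling gave 2.32 and -0.97.

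P4ha1, a catalytic subunit of collagen prolyl hydroxylase and a known HIF-1 target, followed the same order, with means of 38.6, 85.7 and 49.8 TPM in F/F PBS, F/F Tat and ΔMye Tat (log2 differences 1.15 with Tat and -0.78 with deletion, adjusted p = 4.05e-17 and 9.2e-13 in limma, and 1.78 and -0.99 after scaling). Bnip3, a HIF-1 target whose product marks mitochondria for removal, was 12.9, 15.7 and 17.8 TPM (lowest, median and highest) in F/F PBS and 15.7, 18.97 and 20.7 TPM in F/F Tat. With deletion it was 8.66, 6.07, 7.29, 6.36 and 9.05 TPM. The PBS and Tat ranges of Bnip3 overlapped and the difference of 0.28 did not pass (adjusted p = 0.0147 in limma), although it did so when F/F PBS library 4 (adjusted p = 0.00788), F/F Tat library 12 (0.00536) or ΔMye Tat library 23 (0.00905) was left out, and after scaling (0.90). With deletion Bnip3 fell by 1.33 (SE 0.10, adjusted p = 3.6e-09; -1.54 after scaling), the most negative difference among the 34 genes, and all 5 ΔMye Tat libraries lay below every F/F PBS library (-1.05). Reads of Bnip3 may be shared with copies elsewhere, since 20.3% of its 31-base sequences occur in other genes.

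Of the 2 listed prolyl hydroxylases that mark HIF-1α, Egln1 fell with Tat and Egln3 did not pass. Another, Egln2, was outside the list, and was lower with Tat in TPM but higher after scaling. Egln1, the main one in most cells, had 16.4, 17.2 and 18.2 TPM (lowest, median and highest) in F/F PBS and 6.79, 7.44 and 7.80 TPM in F/F Tat. With deletion it had 10.9, 9.78, 8.53, 9.66 and 9.12 TPM, between the other groups without overlap. Egln1 fell by 1.22 with Tat (adjusted p = 1.79e-13 in limma; -0.60 after scaling) and was higher by 0.37 with deletion (adjusted p = 4.57e-05), a difference of 0.16 that did not pass after scaling (adjusted p = 0.0183). Egln3, itself a HIF-1 target, had a mean of 1.35 TPM in both F/F groups and 1.30 TPM in ΔMye Tat (log2 difference 0.03, adjusted p = 0.901 in limma), and 0.61 after scaling passed (adjusted p = 0.0076). Its share of the TPM of Egln1 and Egln3 together was 7.17%, 15.5% and 11.5% in F/F PBS, F/F Tat and ΔMye Tat. Among the ΔMye Tat libraries the share ran from 8.30% to 18.7%. The highest was library 19, with Egln3 at 2.52 TPM against 0.825 to 1.25 TPM in the others.

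Both glucose transporters among the 34 genes rose with Tat, where 17% of all tested genes were higher. Others outside the list fell, Slc2a3 (-1.99), Slc2a8 (-3.46) and Slc2a9 (-1.77), and did so after scaling (-1.45, -2.86 and -1.17). Slc2a3 met the filter on low values only through F/F PBS. Slc2a6 encodes GLUT6, a hexose transporter of intracellular membranes, and lies on chromosome 2 (27021363 to 27027998, minus strand). It had lowest, median and highest values of 71.1, 73.1 and 79.4 TPM in F/F PBS and 335, 364 and 371 TPM in F/F Tat. With deletion Slc2a6 was at 337, 336, 334, 345 and 315 TPM, within or below the range of F/F Tat. Slc2a6 rose by 2.27 with Tat (SE 0.03, adjusted p = 2.21e-21 in limma), the largest rise of the 34 genes. The difference with deletion was -0.11 (adjusted p = 0.0161) and passed without F/F Tat library 9 (adjusted p = 0.00535) and after scaling (-0.32), and ΔMye Tat stayed 2.16 above F/F PBS.

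Slc2a1, on chromosome 4 (119108711 to 119137983, plus strand), encodes GLUT1, the transporter of the plasma membrane that takes up glucose at rest in most cells. F/F PBS libraries had 26.3, 29.1 and 32.9 TPM (lowest, median and highest) and F/F Tat libraries had 84.0, 94.1 and 97.6 TPM. ΔMye Tat libraries had 76.5, 67.8, 60.7, 76.9 and 59.0 TPM, between the other groups without overlap. The rise was 1.64 with Tat (SE 0.07, adjusted p = 1.85e-14 in limma) and the log2 difference with deletion was -0.44 (SE 0.07, adjusted p = 4.03e-05), and scaling gave 2.27 and -0.65. The TPM of the 2 transporters together were 104 ± 5.91, 452 ± 16.8 and 402 ± 18.6 (SD) in F/F PBS, F/F Tat and ΔMye Tat, and the share of Slc2a6 was 71.7%, 79.6% and 83.1%.

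**Figure D2:**
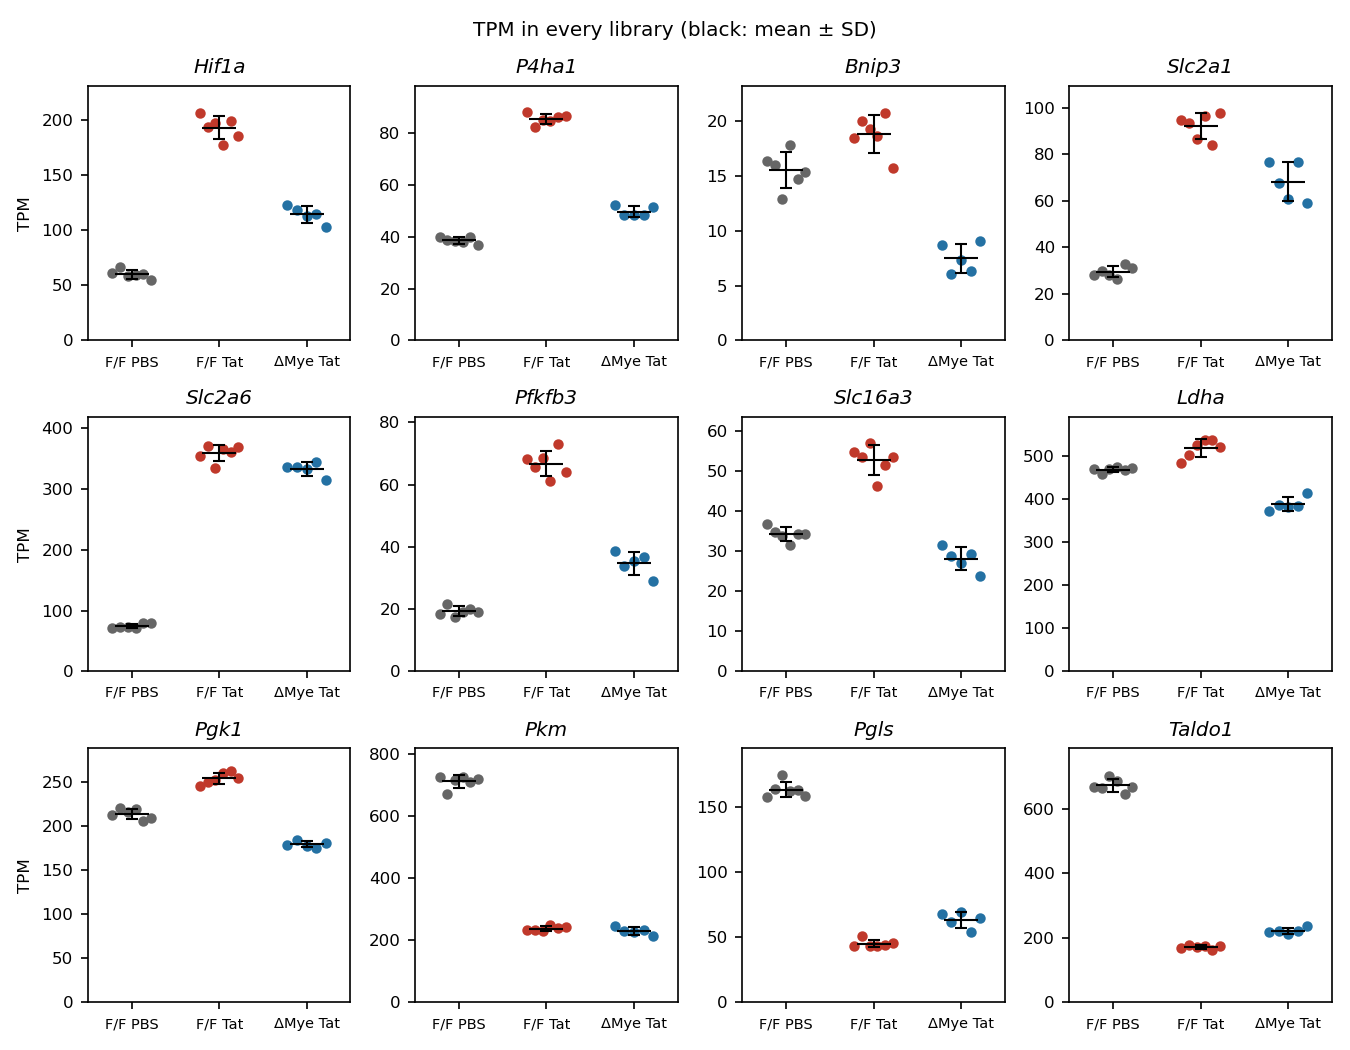
TPM (linear axes from 0) of 12 of the genes in every library of F/F PBS (grey), F/F Tat (red) and ΔMye Tat (blue), with the mean and SD in black. Hif1a, P4ha1, Slc2a1 and Pfkfb3 show 3 separate groups with ΔMye Tat in the middle, Slc2a6 has means of 360 and 333 TPM in the Tat groups, Bnip3, Slc16a3, Ldha and Pgk1 are lowest in ΔMye Tat, and Pkm, Pgls and Taldo1 are highest in F/F PBS.

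The promoters of the 4 genes that passed the thresholds upward are shown with that of Taldo1, the pentose phosphate gene that fell most, because HIF-1 binds a short core sequence that can be looked for in them. The sequences are the 250 bases before the RefSeq transcription start on GRCm38.p6, written 5′ to 3′ on the gene's strand, and capitals mark the HIF-1 core (ACGTG or GCGTG on either strand, so that CACGT and CACGC are its reverse forms).
Hif1a, chr12:73907617-73907866, plus strand: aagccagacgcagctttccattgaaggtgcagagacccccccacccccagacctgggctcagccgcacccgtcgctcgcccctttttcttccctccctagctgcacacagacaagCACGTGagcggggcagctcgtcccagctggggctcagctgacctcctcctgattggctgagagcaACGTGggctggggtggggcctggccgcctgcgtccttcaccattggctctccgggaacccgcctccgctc
Slc2a1, chr4:119108495-119108744, plus strand: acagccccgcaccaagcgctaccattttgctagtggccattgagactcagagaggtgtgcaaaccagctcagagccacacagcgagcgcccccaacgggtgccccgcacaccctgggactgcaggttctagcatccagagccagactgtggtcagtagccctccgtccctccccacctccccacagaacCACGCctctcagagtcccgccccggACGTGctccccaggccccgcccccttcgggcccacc
Slc2a6, chr2:27027999-27028248, minus strand: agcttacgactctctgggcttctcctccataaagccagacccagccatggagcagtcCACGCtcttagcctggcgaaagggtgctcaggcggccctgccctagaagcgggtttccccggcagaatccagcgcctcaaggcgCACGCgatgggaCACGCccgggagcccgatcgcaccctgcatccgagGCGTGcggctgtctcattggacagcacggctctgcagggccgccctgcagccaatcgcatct
Pfkfb3, chr2:11553930-11554179, minus strand: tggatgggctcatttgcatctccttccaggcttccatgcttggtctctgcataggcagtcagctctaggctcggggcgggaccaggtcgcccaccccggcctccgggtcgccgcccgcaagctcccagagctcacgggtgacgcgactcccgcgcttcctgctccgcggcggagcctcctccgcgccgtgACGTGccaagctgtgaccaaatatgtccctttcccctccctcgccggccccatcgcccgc
Taldo1, chr7:141391910-141392159, plus strand: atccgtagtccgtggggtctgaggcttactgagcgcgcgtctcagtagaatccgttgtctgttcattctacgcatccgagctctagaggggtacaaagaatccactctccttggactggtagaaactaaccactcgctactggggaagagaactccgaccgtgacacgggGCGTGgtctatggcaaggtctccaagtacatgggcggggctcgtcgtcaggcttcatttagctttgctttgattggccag

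Slc2a6 holds 4 matches, Hif1a 3, of which 2 overlap in 1 palindrome and were counted on both strands, Slc2a1 2, Pfkfb3 1 and Taldo1 1. Pfkfb3 has a second window, at a start further downstream and not shown, that holds 4 matches. Over the full windows of 250 bases before to 50 after a start, 32 of the 34 genes (94.1%) had the core in at least 1 window, with Gpi1 and Tpi1 the exceptions, compared with 68.4% of the 8413 tested genes that have a window and 46.7% of all 27025 genes in the table. The core is short, and the genes that rose and the genes that fell with Tat both carried it. The NF-κB motif was found in 0 of the 34 genes, in 6.15% of tested genes and in 5.14% of all genes. These are matches of letters in a window near the start and give no measure of binding.

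Upper glycolysis, from hexokinase to triose phosphate, had 5 genes higher with Tat, 6 lower and 1 that did not pass. Of all tested genes 17% were higher and 67.6% lower. All 3 hexokinases, which trap glucose as its phosphate, rose. Hk3 had the highest level of the family (means 302, 609 and 449 TPM in F/F PBS, F/F Tat and ΔMye Tat), Hk2 had 23.7, 65.0 and 55.5 TPM and Hk1 had 29.5, 53.0 and 39.8 TPM. Their log2 differences with Tat were 1.02, 1.46 and 0.84 (adjusted p at most 1.19e-10 in limma; 1.65, 2.09 and 1.47 after scaling). With deletion Hk3 fell by 0.45 and Hk1 by 0.42 (-0.66 and -0.63 after scaling), while Hk2 had -0.24 (adjusted p = 0.0111), which passed without ΔMye Tat library 19 (-0.31, adjusted p = 0.00069) and after scaling (-0.45). The hexokinases together went from 355 ± 17.8 to 727 ± 22.3 and 544 ± 59.8 TPM (SD), and Hk2 made up 6.67%, 8.94% and 10.2% of them.

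The step that commits glucose to glycolysis, phosphofructokinase, changed in its makeup. Pfkl, the liver-type subunit, fell from 39.3 to 19.2 TPM with Tat (log2 difference -1.03, adjusted p = 2.52e-10 in limma; -0.40 after scaling) and to 13.0 TPM with deletion (-0.56, adjusted p = 1.38e-05, and -0.77 after scaling). Pfkp, the platelet-type subunit, rose from 52.0 to 91.0 TPM (0.81, adjusted p = 1.85e-11, and 1.44 after scaling) and was 88.3 TPM in ΔMye Tat (-0.04, adjusted p = 0.5, though -0.26 and passed after scaling). With Tat the part of Pfkp in the family went from 55.4% (49.1 to 59.6 over libraries) to 81.2% (78.8 to 82.9), and with deletion it was 85.4% (83.4 to 87.8), a share within a library that no scaling changes. Pfkm, the muscle-type subunit, was at 2.52, 1.86 and 2.06 TPM and passed in neither comparison.

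Pfkfb3, on chromosome 2 (11471433 to 11554077, minus strand), makes fructose bisphosphate of the kind that activates phosphofructokinase. Its lowest, median and highest values were 17.4, 19.2 and 21.8 TPM in F/F PBS and 61.1, 67.0 and 72.9 TPM in F/F Tat. With deletion the values were 38.7, 33.8, 35.4, 36.9 and 29.0 TPM, with no overlap among the 3 groups. Pfkfb3 rose by 1.78 with Tat (SE 0.07, adjusted p = 2.44e-15 in limma) and fell by 0.94 with deletion (SE 0.07, adjusted p = 1.28e-09), and scaling gave 2.41 and -1.16. Pfkfb4, an enzyme of the same family, fell from 7.07 to 2.49 TPM with Tat (-1.51, adjusted p = 7.71e-08, and -0.90 after scaling) and was 2.67 TPM in ΔMye Tat, so that Pfkfb3 made up 73.2%, 96.4% and 92.8% of the pair.

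**Figure D3:**
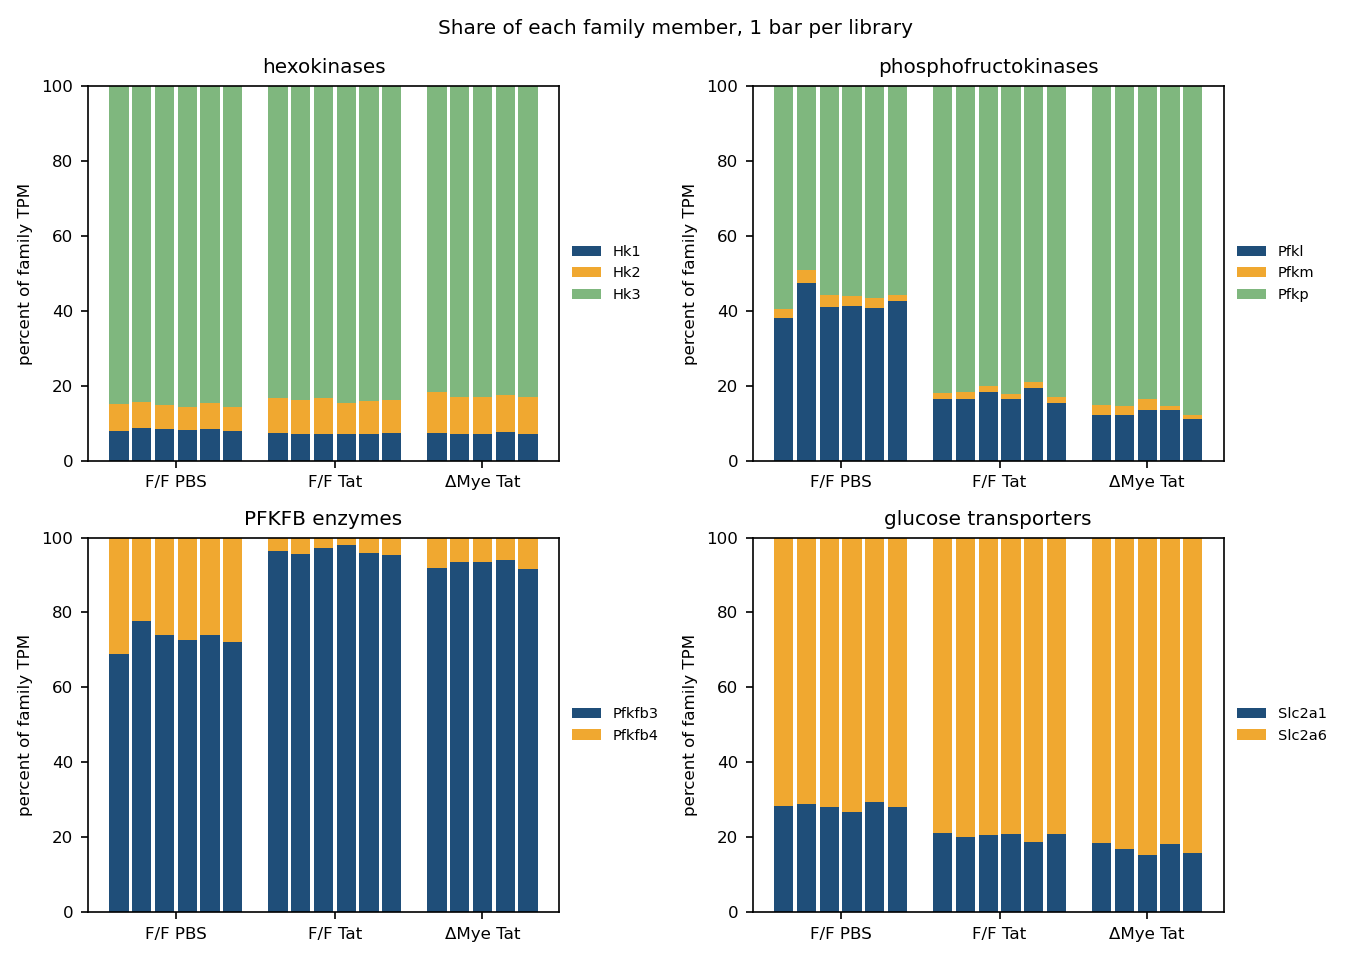
Percent of the TPM of 4 families taken by each gene, with 1 stacked bar per library in the 3 groups. Pfkp takes 55.4% of the phosphofructokinases in F/F PBS and 81.2% and 85.4% in the Tat groups, Pfkfb3 takes 73.2%, 96.4% and 92.8% of its pair with Pfkfb4, and Hk3 takes over 80% of the hexokinases in every library.

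Aldoa, the aldolase that splits the sugar in macrophages, was 1186, 1222 and 1241 TPM (lowest, median and highest) in F/F PBS and 592, 619 and 648 TPM in F/F Tat. ΔMye Tat libraries had 629, 611, 563, 583 and 558 TPM and overlapped F/F Tat. Aldoa fell by 0.98 with Tat (adjusted p = 9.32e-17 in limma, and -0.35 after scaling) and differed by -0.07 with deletion (adjusted p = 0.0642), which became -0.28 and passed after scaling. Gpi1, the isomerase after hexokinase, fell from 162 to 60.3 TPM with Tat (-1.42, and -0.79 after scaling) and was 75.3 TPM in ΔMye Tat (0.32, adjusted p = 4.97e-05, but 0.10 and not passed after scaling). Tpi1, triose phosphate isomerase, fell in both comparisons (204, 121 and 88.6 TPM, -0.75 and -0.45), although -0.12 with Tat did not pass after scaling (adjusted p = 0.026).

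Aldoc, the brain-type aldolase, was a minor gene whose change is hard to size. It had 1.10, 1.32 and 1.41 TPM (lowest, median and highest) in F/F PBS and 0, 0.0562 and 0.208 TPM in F/F Tat, with 2 of the 17 libraries listed at 0. With deletion it had 0.0671, 0.186, 0.0491, 0.142 and 0.123 TPM. Both groups given Tat lay below every F/F PBS library, but the log2 difference of -3.15 (adjusted p = 2.57e-09 in limma) was -1.66 with a pseudocount of 0.5 and -1.10 with a pseudocount of 1, and Aldoc was at most 0.115% of aldolase TPM.

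Lower glycolysis had 1 gene higher with Tat and 4 lower, where 17% of all tested genes were higher and 67.6% lower. Gapdh, which couples the pathway to NADH, was the most abundant of the 34 genes, with lowest, median and highest values of 1620, 1681 and 1713 TPM in F/F PBS and 931, 957 and 1000 TPM in F/F Tat. Gapdh with deletion was 927, 963, 899, 922 and 945 TPM and overlapped F/F Tat. Gapdh fell by 0.80 with Tat (adjusted p = 4.29e-17 in limma; -0.17 after scaling, adjusted p = 0.00016), and the difference of -0.04 with deletion (adjusted p = 0.128) was -0.26 and passed after scaling.

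Pkm, pyruvate kinase, fell the most of this stretch, from 712 to 238 TPM with Tat (-1.58, adjusted p = 1.37e-19 in limma; -0.95 after scaling), which is 0.334 of the F/F PBS level and just misses the fold threshold. It was 231 TPM in ΔMye Tat (-0.05, adjusted p = 0.227), a difference that became -0.26 and passed after scaling (adjusted p = 2.2e-05). Eno1, enolase, fell from 571 to 350 TPM with Tat (-0.71) and to 302 TPM with deletion (-0.21), and Pgam1, phosphoglycerate mutase, fell from 556 to 369 TPM (-0.59) and was 375 TPM in ΔMye Tat. After scaling the difference with Tat was -0.08 for Eno1 (adjusted p = 0.035) and 0.04 for Pgam1 (adjusted p = 0.31), so neither passed. The deletion difference of Pgam1, 0.03 in TPM (adjusted p = 0.486), turned to -0.19 and passed after scaling (adjusted p = 0.00042).

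Pgk1, the kinase that makes the first ATP of the pathway, moved against its neighbours. It rose from 214 to 254 TPM with Tat (0.25, adjusted p = 2.01e-08 in limma; 0.88 after scaling) and fell to 179 TPM with deletion (-0.50, adjusted p = 1.28e-11), below F/F PBS in TPM (-0.25) but above it after scaling (0.16, adjusted p = 0.0015). Many of its reads could come from copies, since 54.7% of its 31-base sequences occur in other genes, as do 37.1% for Pgam1, 34.7% for Pkm, 28.5% for Eno1 and 27.2% for Gapdh.

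The genes of pyruvate and lactate had 2 higher with Tat, 1 lower and 1 that did not pass, and all 4 were lower with deletion. Of all tested genes 17% were higher and 67.6% lower with Tat, and 8.87% were lower with deletion. Ldha, the subunit of lactate dehydrogenase that favours lactate, had lowest, median and highest values of 457, 468 and 475 TPM in F/F PBS and 483, 523 and 535 TPM in F/F Tat. Values with deletion were 372, 385, 382, 383 and 414 TPM, below every library of both F/F groups in TPM. Ldha rose by 0.14 with Tat (SE 0.03, adjusted p = 0.000132 in limma), 0.78 after scaling, but was -0.06 after quantile normalization. Ldha fell by 0.42 with deletion (adjusted p = 1.35e-09; -0.63 after scaling). ΔMye Tat was -0.27 against F/F PBS, which turned to 0.15 and did not pass after scaling (adjusted p = 0.014).

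Slc16a3 encodes MCT4, the transporter through which glycolytic cells export lactate. It had 31.6, 34.3 and 36.7 TPM (lowest, median and highest) in F/F PBS, 46.2, 53.5 and 57.1 TPM in F/F Tat, and with deletion 31.5, 28.8, 27.1, 29.3 and 23.8 TPM. Each ΔMye Tat library was below the lowest F/F PBS library, library 19 only narrowly. Slc16a3 rose by 0.62 with Tat (adjusted p = 1.25e-08 in limma) and fell by 0.91 with deletion (SE 0.06, adjusted p = 8.22e-10), and scaling gave 1.25 and -1.12. ΔMye Tat was -0.29 against F/F PBS (adjusted p = 0.000388), which turned to 0.13 and did not pass after scaling.

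Slc16a1, encoding the related MCT1, had 9.61, 10.7 and 7.56 TPM. Its difference with Tat was 0.16 (adjusted p = 0.0133 in limma), which passed without F/F Tat library 12 (adjusted p = 0.00479) and also after scaling, at 0.79 with no overlap of the groups, and it fell by 0.50 with deletion (adjusted p = 9.61e-07). Pdk1, a kinase that inhibits pyruvate dehydrogenase, fell from 1.89 to 0.92 TPM with Tat (-0.99, adjusted p = 0.000122, though -0.41 and not passed after scaling). Pdk1 reached 1 TPM in 9 libraries, among them all of F/F PBS and none of ΔMye Tat. It so met the filter only through the group where it was high. The further fall of Pdk1 to 0.49 TPM with deletion (-0.79, adjusted p = 0.00341) came with overlapping groups and was lost without ΔMye Tat library 20 (adjusted p = 0.0128) or 21 (0.0117) and in a fit of only the compared groups.

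All 6 pentose phosphate enzymes fell with Tat, by 0.96 to 1.97 on the log2 scale, and by 0.33 to 1.34 after scaling. Of all tested genes 67.6% were lower with Tat, and 38.1% after scaling. Taldo1, transaldolase, on chromosome 7 (141392199 to 141402968, plus strand), had lowest, median and highest values of 648, 668 and 703 TPM in F/F PBS and 164, 173 and 178 TPM in F/F Tat. The ΔMye Tat libraries had 218, 223, 213, 221 and 238 TPM, above every F/F Tat library and far below F/F PBS. Taldo1 fell by 1.97 with Tat (SE 0.03, adjusted p = 1.45e-21 in limma; -1.34 after scaling) and was 0.37 higher with deletion (SE 0.03, adjusted p = 7.94e-09; 0.16 after scaling, adjusted p = 0.014).

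Pgls, lactonase of the oxidative branch, on chromosome 8, was 158, 163 and 175 TPM (lowest, median and highest) in F/F PBS and 43.2, 44.1 and 50.8 TPM in F/F Tat. ΔMye Tat libraries had 67.9, 61.6, 69.5, 53.9 and 64.9 TPM, all above F/F Tat. It fell by 1.85 with Tat (SE 0.05, adjusted p = 5.68e-17 in limma; -1.22 after scaling). With deletion it was 0.49 higher (SE 0.06, adjusted p = 7.31e-07), and at 0.27 after scaling (adjusted p = 0.0014) it was the 1 gene of the 34 that still passed upward. Of its 31-base sequences 19.5% occur in Fam129c.

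Pgd, the dehydrogenase that gives the second NADPH, had the highest mean of the pathway over all 17 libraries, although Taldo1 was higher in F/F PBS. Pgd had 556, 571 and 584 TPM (lowest, median and highest) in F/F PBS and 270, 275 and 280 TPM in F/F Tat. The ΔMye Tat libraries had 310, 306, 292, 310 and 302 TPM. Pgd fell by 1.05 with Tat (adjusted p = 4.78e-19 in limma) and was 0.15 higher with deletion (adjusted p = 3.85e-05), which turned to -0.07 and did not pass after scaling. G6pdx, which commits glucose to the pathway, had 184, 81.4 and 99.1 TPM (-1.17 and 0.28), Tkt, transketolase, had 75.1, 26.4 and 29.4 TPM (-1.51 and 0.15, the latter not passed) and Rpia, the ribose isomerase, had 24.0, 12.3 and 15.8 TPM (-0.96 and 0.36). After scaling the deletion differences of these 3 genes were 0.07, -0.06 and 0.15, and none passed.

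Summed over the pathway, the 15 glycolytic enzymes (hexokinase to pyruvate kinase, without the PFKFB enzymes) made up 5759 ± 36.5, 3807 ± 64.6 and 3418 ± 144 TPM (SD) in the 3 groups. F/F Tat was thus 66.1% of F/F PBS, and ΔMye Tat 89.8% of F/F Tat. Scaling changed the first of these to 102% and the second to 77.4%, so that a lower sum with Tat holds for TPM alone. Scaling lowers every difference with deletion, so the lower sum there could not have turned. Without Gapdh and Aldoa, the remaining 13 enzymes in F/F Tat were at 77.8% of F/F PBS in TPM and 120.5% after scaling. ΔMye Tat was then at 85.1% and 73.3% of F/F Tat. The 6 pentose phosphate enzymes summed to 1689 ± 30.0, 612 ± 8.52 and 735 ± 12.0 TPM, so that F/F Tat was at 36.2% of F/F PBS (56.1% after scaling) and ΔMye Tat at 120% of F/F Tat (104%).

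**Figure D4:**
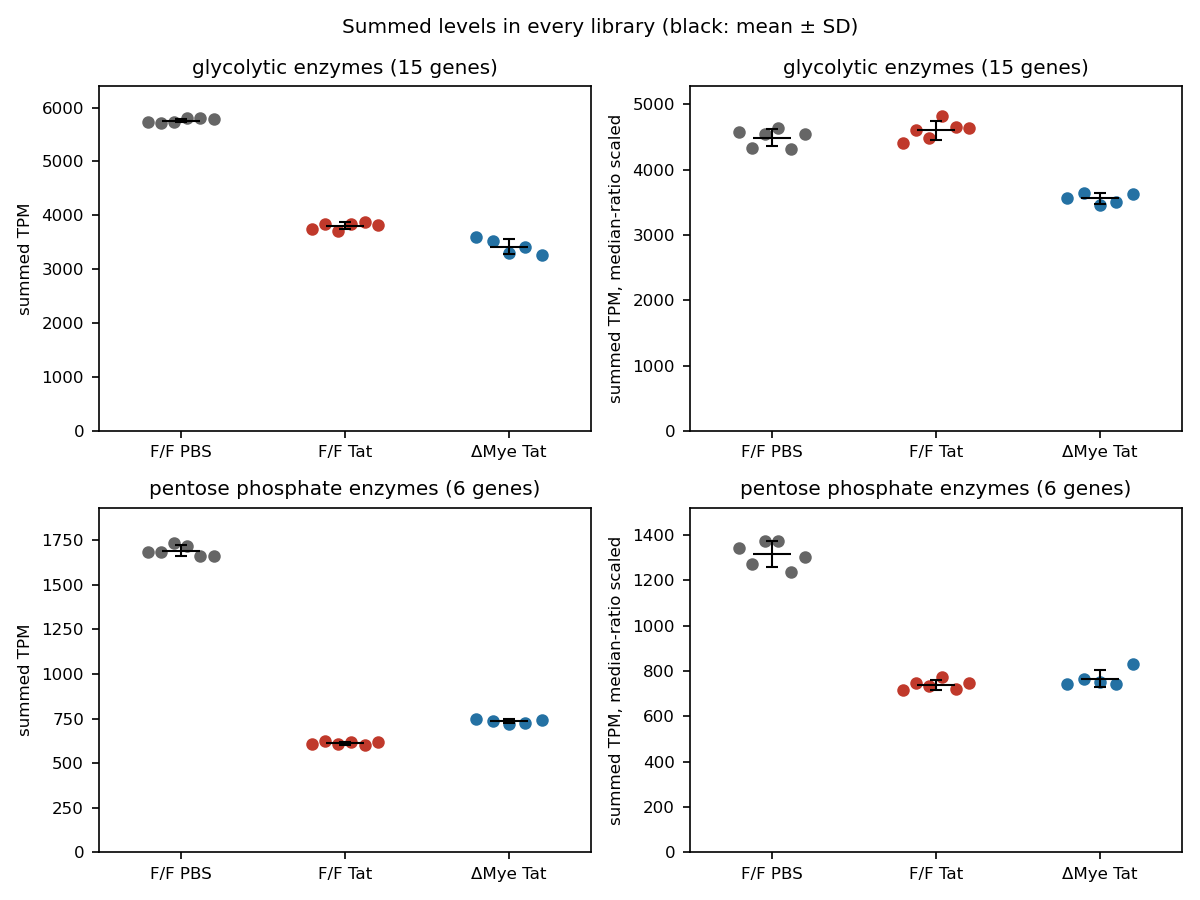
Summed level of the 15 glycolytic enzymes (top) and of the 6 pentose phosphate enzymes (bottom) in every library, in TPM (left) and after median-ratio scaling (right), with the mean and SD in black and axes from 0. The glycolytic sum falls from 5759 to 3807 TPM with Tat on the left but is 4490 and 4601 on the right, whereas the pentose phosphate sum falls with Tat on both scales.

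Against F/F PBS, the ΔMye Tat libraries had 9 of the 34 genes higher (17.5% of all genes) and 23 lower (58.8%), with a median of -0.72 for the 34 and -0.43 for all genes. The fold threshold was passed upward by Slc2a6 (4.38% of all genes) and downward by 5 genes, Aldoc, Pdk1, Pkm, Taldo1 and Pfkl (11.1%). Of these, Aldoc and Pdk1 met the filter on low values only through F/F PBS. The 9 higher genes were Slc2a6 (2.16), Hk2 (1.22), Slc2a1 (1.20), Hif1a (0.93), Pfkfb3 (0.84), Pfkp (0.76), Hk3 (0.57), Hk1 (0.42) and P4ha1 (0.37). Each stayed above F/F PBS after scaling, as it had to, since scaling raises every difference from F/F PBS.

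Of 42 further glycolytic and pentose phosphate genes 25 were tested, and with Tat 1 was higher, 22 were lower and 2 did not pass. Their median was -1.77, beside 67.6% lower, 17% higher and a median of -0.65 over all tested genes. After scaling 20 were lower and 3 higher, where 38.1% and 37.1% of all genes were. The lowest were Pdk2, the kinase related to Pdk1 (4.03 to 0.0772 TPM, -4.56), which passed the filter only through F/F PBS, Slc2a8, an intracellular glucose transporter (8.78 to 0.739 TPM, -3.46), and Ldhb, the lactate dehydrogenase subunit that favours pyruvate (11.1 to 1.23 TPM, -3.06). Slc2a3, also among the lower genes, likewise passed the filter only through F/F PBS. With deletion 14 of the 25 were higher and 2 lower, where 38.8% and 8.87% of all genes were. After scaling 8 were higher and 2 lower, where 16.4% and 18.8% of all genes were. Ldhb was among the higher genes, at 3.20 TPM in ΔMye Tat (1.29, adjusted p = 5.16e-08 in limma).

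Of 25 further genes of the HIF-1 axis 22 were tested. With Tat 5 were higher, 12 lower and 5 did not pass, where 17% of all genes were higher and 67.6% lower. The split turned to 13 higher and 6 lower after scaling, where 37.1% and 38.1% of all genes were. Among the highest were Nos2, the inducible nitric oxide synthase (0.771, 897 and 443 TPM in F/F PBS, F/F Tat and ΔMye Tat) and Adm, adrenomedullin (0.252, 1.72 and 1.14 TPM), with log2 differences of 10.02 and 2.37 with Tat. Nos2 and Adm had means under 1 TPM in F/F PBS and could not have met the filter on low values without the groups given Tat. Nos2 is also a known NF-κB target. The lowest were Epas1, which encodes HIF-2α (21.2, 1.15 and 1.56 TPM, -4.08 with Tat), Car9, a carbonic anhydrase (2.94, 0.323 and 0.877 TPM, -2.85), and Bnip3l, a relative of Bnip3 (81.1, 12.5 and 19.8 TPM, -2.70). Car9 had means under 1 TPM in both groups given Tat. With deletion 8 of the 22 were lower and 3 higher, beside 8.87% lower and 38.8% higher over all genes. After scaling 13 were lower and 2 higher, beside 18.8% and 16.4% of all genes. Nos2 fell by 1.03 (adjusted p = 8.08e-08 in limma) and Bnip3l rose by 0.67 (adjusted p = 9.24e-10).

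Within the ΔMye Tat group the same libraries often stood at the ends of the range. Library 19 was the highest and library 23 the lowest for 13 of the 34 genes (38.2%), among them Hif1a, Pfkfb3, Slc16a3 and all 3 hexokinases, and for 26.3% of all tested genes. With deletion 7 genes were higher and 16 lower without library 19, and 7 and 15 without library 23.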

How the data were processed

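RNA-Seq of 17 libraries was analysed. The authors quantified the reads with Salmon against the Ensembl annotation of GRCm38 (mm10 in the submitters' processing notes) and deposited TPM per gene symbol. Their own comparisons were made in edgeR (TMM, likelihood ratio) from read counts, which TPM do not hold, so that step was not repeated, and depth and counting error are unknown. Library totals of the listed TPM were 889318 to 903576, no 2 libraries held identical values and 0 columns went unused.

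A row was tested where 5 or more libraries reached 1 TPM. Values were log2(TPM + 0.1), and limma (version 3.58.1, under R 4.3.3) was run with a trended prior. The 3 groups shared 1 fit with 14 residual degrees of freedom. P-values were adjusted over all 10451 rows by Benjamini-Hochberg, and genes passed at an adjusted p under 0.01. The study's thresholds add a fold change over 3. The script was tested on simulated data. A fold change on this scale understates the change of low genes. Scaling was by the median of ratios over genes above 0 in every library. Alternatives were quantile normalization, other pseudocounts (0.5 and 1), a filter at 5 TPM or none, only the compared groups, an exact two-sided permutation test, and each library left out in turn.

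The members, role lists, further pathway genes and markers were chosen with earlier results of these data known. Library values are printed for members past the study's thresholds, for the member of each role list with the highest mean, and for the 3 highest and 3 lowest differences with deletion among members that passed. Of the further pathway genes, at most the 3 highest and 3 lowest past the thresholds are named, and beside them Egln2, Slc2a3 and Slc2a9 as relatives of members. Ikbkb and Lyz2 are named as a check of the labels. An allele that all groups share and 1 gene that this rule names are not reported here. Gene coordinates are from GENCODE M21, where Aldoa has 2 gene records, and promoters from RefSeq (GRCm38.p6), with all 34 members matched. Shared 31-base sequences were counted in the M21 transcripts. Scripts used Python 3.11.15, pandas 2.3.3, numpy 2.4.6 and matplotlib 3.10.9.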

Additional observations from a re-analysis of the deposited data

Results flagged for a closer look

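Each gene was checked in each group for 1 library far from the others by Dixon's test at the 95% level, which marks about 1 in 20 groups by chance, and 5 of 102 groups (4.9%) were marked. Egln3 was 2.52 TPM in ΔMye Tat library 19, against 0.825 to 1.25 TPM in the other 4. Pfkl was 10.4 TPM in ΔMye Tat library 23, against 13.3 to 14.3 TPM in the other libraries of the group. Hk3 was 569 TPM in F/F Tat library 9, against 612 to 620 TPM in the others. Pgls was 50.8 TPM in F/F Tat library 8, against 43.2 to 45.6 TPM. Pkm was 671 TPM in F/F PBS library 2, against 710 to 727 TPM.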

How the results depend on the processing

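No paired analysis was possible because the groups share no library numbers. With pseudocounts of 0.5 and 1 and with no filter every one of the 34 genes kept its direction and its side of the adjusted p threshold in all 3 comparisons, but not of the fold threshold, which Aldoc misses with Tat at a pseudocount of 1 (-1.10). Results depended most on scaling, and the cause was not tested. With median-ratio scaling the genes past the study's thresholds with Tat were 7 higher and 1 lower, the genes higher with deletion were 1, and the glycolytic sums were 4490 and 4601 in F/F PBS and F/F Tat. Directions that turned with that scaling were, with Tat, Pfkm 0.22 and Pgam1 0.040, with deletion, Pfkm -0.19, Pfkfb4 -0.066, Pgam1 -0.19, Pgd -0.066 and Tkt -0.058, and in ΔMye Tat relative to F/F PBS, Egln3 0.26, Pfkm 0.022, Pgk1 0.16, Ldha 0.15, Slc16a1 0.075 and Slc16a3 0.13. Under quantile normalization they were, with Tat, Pfkm 0.72, Ldha -0.058 and Pdk1 0.16, with deletion, Pfkm -0.28, Pfkfb4 -0.17, Aldoc -0.11 and Tkt -0.0057, and against F/F PBS, Egln3 0.81, Pfkm 0.44 and Slc16a1 0.19. Without a turn in direction, median-ratio scaling took 3 genes out of those that passed with Tat and added 3, and with deletion took 5 and added 6, and quantile normalization took 1 and added 3 with Tat and took 2 and added 1 with deletion. The exact permutation test and the fit of only the compared groups each took Pdk1 with deletion, the latter fit added Bnip3 with Tat, and the filter at 5 TPM added Hk2 with deletion. For ΔMye Tat against F/F PBS the study's thresholds gave 1 higher and 5 lower, and with median-ratio scaling 3 higher and 1 lower, with quantile normalization 3 lower, with either pseudocount 2 lower and with the filter at 5 TPM 3 lower, where fewer of the 34 were tested. Leaving out 1 library gave 12 to 14 higher and 18 lower with Tat, 7 higher and 14 to 16 lower with deletion, and moved Egln3 with Tat between -0.038 and 0.10, Pfkm with deletion between -0.14 and 0.25 and Pfkfb4 with deletion between -0.029 and 0.21, none of which passed. TPM keep no depth, so differences between genes near 1 TPM (Aldoc, Pdk1, Egln3, Pfkm) are the least certain.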
